A study of Mus musculus with 12 samples.

Results

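The E2F and retinoblastoma family comprises transcription factors and the pocket proteins that hold them in check. The members were looked up by name in the deposited signal table (E2f1, E2f2, E2f3, E2f4, E2f7, E2f8, Tfdp1, Rb1, Rbl1 and Rbl2), and 9 of the 10 had a row among 18138 symbols. E2f8 had none. RNA was measured on 1-colour arrays in T cells sorted from the thymus of C57BL6/J mice aged 8 to 12 weeks, of mixed sex. The 4 groups were Caph2(I15N) mutant CD71+ cells, wild-type CD71+ cells, mutant CD71- cells and wild-type CD71- cells, with 3 arrays each. All of them were sorted as CD4+CD8+ and, per the sample titles, through an FSClo gate. The mutation changes 1 amino acid of Ncaph2, a subunit of the condensin II complex that compacts chromosomes, and the titles write the mutant genotype as Caph2nes/nes and the wild type as Caph2+/+. Nothing in the labels tells if the samples within a group are separate mice, pools or repeats of 1 extract, so p-values measure the spread between these samples only, which may be technical.

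E2F proteins bind DNA with a DP partner such as the product of Tfdp1 and switch on genes for DNA replication and nucleotide synthesis. E2F1, E2F2 and E2F3 are classed as activators, E2F4 acts mostly in repressor complexes, and E2F7 and E2F8 are atypical repressors that bind without DP. The pocket proteins RB1, p107 (Rbl1) and p130 (Rbl2) bind E2F and silence its targets until cyclin-dependent kinases phosphorylate them. In the thymus E2F1 is known for a role in the death of thymocytes, and E2F2 is known to restrain the proliferation of T cells. CD71 is the transferrin receptor, which proliferating thymocytes display.

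Several family genes are themselves E2F targets, so RefSeq promoter windows (GRCm38.p6, 250 bases before to 50 bases from the start site) were searched on both strands for the E2F site letters TTTCCCGC, TTTCGCGC, TTTGCCGC and TTTGGCGC. Of the 10 members, 8 had a window, and 5 of these 8 held such letters (62.5%), against 2.26% of all 32851 windows, 2.6% of all 27025 genes and 4.69% of the 5293 genes that had a window and were tested on the arrays. The 5 were E2f2, E2f3, E2f7, Tfdp1 and Rbl1. The 4 stretches printed here belong to the members with these letters that were detected. They run from 70 bases before to 50 bases from the start site, with the E2F site letters in capitals.
E2f2, chr4:136172204-136172323, plus strand: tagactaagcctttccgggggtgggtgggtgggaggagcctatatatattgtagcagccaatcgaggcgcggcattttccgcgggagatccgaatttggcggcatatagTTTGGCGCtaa
E2f3, chr13:29986014-29986133, minus strand: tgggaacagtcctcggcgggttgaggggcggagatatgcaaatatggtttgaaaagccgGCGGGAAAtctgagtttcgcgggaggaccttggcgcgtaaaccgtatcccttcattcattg
Tfdp1, chr8:13338681-13338800, plus strand: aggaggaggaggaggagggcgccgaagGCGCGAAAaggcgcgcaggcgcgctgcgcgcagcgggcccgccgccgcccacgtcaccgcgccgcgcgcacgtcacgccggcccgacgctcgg
Rbl1, chr2:157204485-157204604, minus strand: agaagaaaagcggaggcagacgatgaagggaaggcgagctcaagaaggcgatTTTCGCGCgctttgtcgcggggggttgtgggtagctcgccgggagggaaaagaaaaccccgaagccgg

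In E2f3 and Tfdp1 the letters lie on the strand opposite to the gene, and in E2f2 and Rbl1 on its own strand. The letters TTTGAA of the cell cycle homology region, an element of mitotic genes, occurred in windows of 4 of the 8 members (E2f2, E2f3, E2f8 and Rbl2), against 20.2% of all genes. These matches describe letters and not bound sites. The single window listed for E2f1 is built on a start site 466 bases inside the annotated gene, so it does not cover the gene's first start site. The same holds for the E2f8 window (477 bases inside) and for the E2f2 window that holds TTTGAA (8508 bases inside).

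The mean signal of an array was 95.1 to 203, and 5893 to 7415 symbols had a detection p under 0.05 on it. The dimmest array was wild-type CD71- array 1, and precision is limited by having 3 arrays a group. Of the 10 markers of CD4+CD8+ thymocytes, 7 were detected on all 3 mutant CD71+ arrays and 8 on all 3 arrays of each other group. Cd8a, which defines the sort, was detected on 0 arrays. Cd8b1 averaged 11.10 in mutant CD71+, 11.54 in wild-type CD71+, 12.40 in mutant CD71- and 12.66 in wild-type CD71- cells on the normalized log2 scale. Red-cell precursors also carry CD71, and of 7 erythroid markers 0 were detected on all 3 arrays of any group. Tfrc, which encodes CD71, was higher in CD71+ cells by 1.30 in mutants and 1.15 in wild type. Ncaph2 gave 7.66, 7.92 and 7.57 in mutant CD71+ cells, against 7.68, 8.00 and 7.58 in wild-type CD71+ cells, and the level of a gene with a missense change does not check the genotype labels.

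CD71+ cells, set against CD71- cells, had more RNA of E2f1, E2f2, E2f3, Tfdp1 and Rbl1 in both genotypes. The largest differences were those of E2f1, 6.24-fold in mutants and 5.08-fold in wild type, and of Tfdp1, 4.51-fold in mutants and 4.6-fold in wild type. E2f4 and Rb1 did not pass the test, and E2f7 and Rbl2 were not detected well enough to test. Of the 7 members tested, 5 were called higher and 0 lower in either genotype (adjusted p under 0.05, limma, Benjamini-Hochberg over 8247 symbols). Over all tested symbols 28.8% were called in mutants, 14.5% higher and 14.3% lower, and 25.1% in wild type, 12.0% higher and 13.1% lower. In bulk samples, fewer cells of a type and less RNA per cell cannot be told apart. Each of the 7 was detected on at least 2 arrays of every group.

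**Figure D1:**
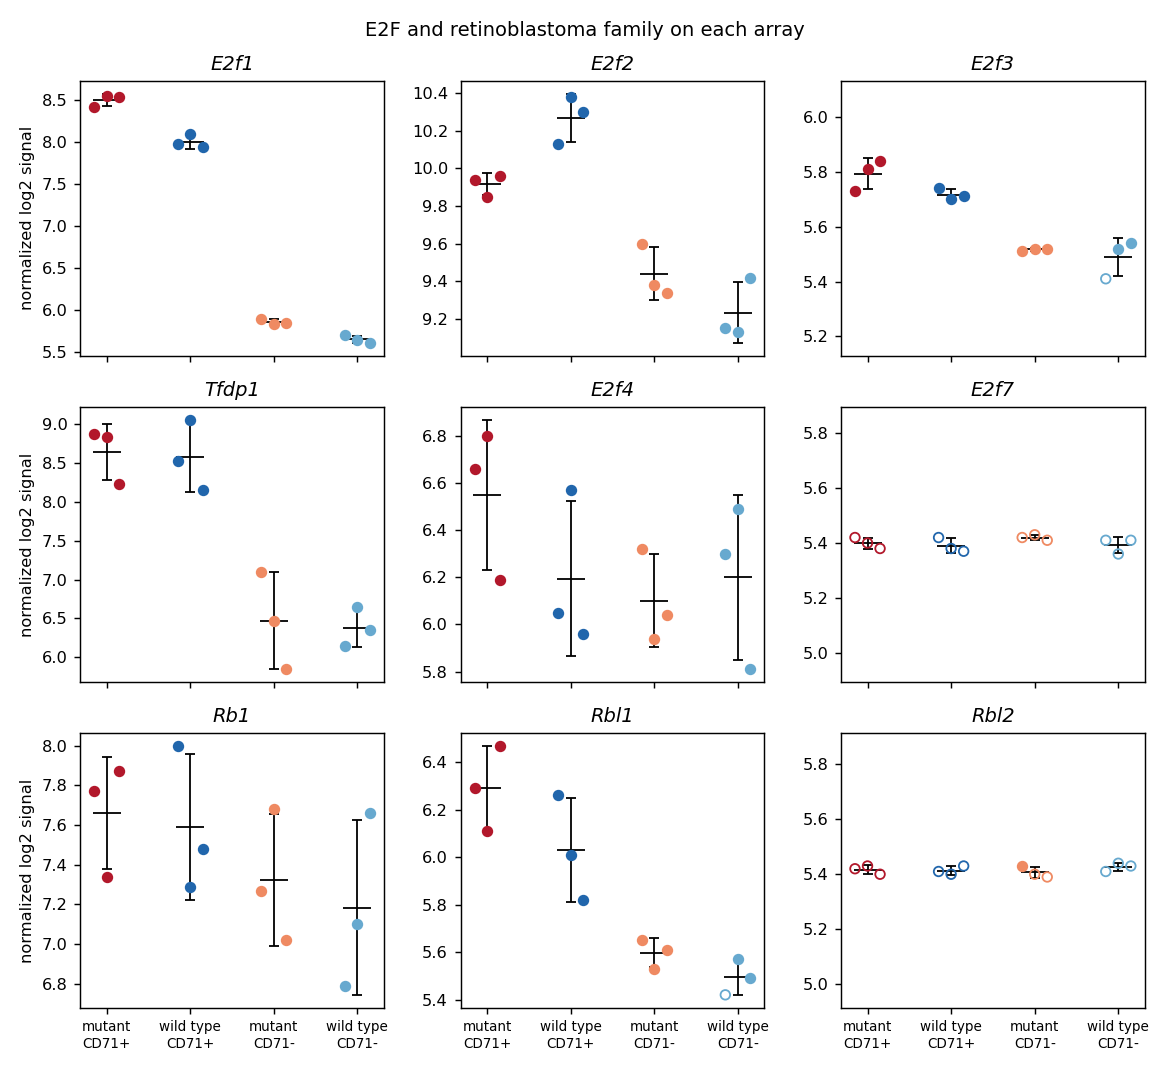
Normalized log2 signal (vertical axes, each panel with its own range) of the 9 members with a row on each of the 12 arrays, by group. Filled points are arrays that detected the gene, open points arrays that did not, and bars give mean and SD of 3 arrays. All 6 CD71+ arrays lie above all 6 CD71- arrays for E2f1, E2f2, E2f3, Tfdp1 and Rbl1, while E2f7 and Rbl2 stay between 5.36 and 5.44.

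E2f1 (chr2:154559400-154569892), an activator, gave normalized log2 signals of 8.42, 8.55 and 8.54 in mutant CD71+ cells and 7.97, 8.09 and 7.94 in wild-type CD71+ cells. It gave 5.90, 5.84 and 5.85 in mutant CD71- cells and 5.70, 5.65 and 5.61 in wild-type CD71- cells. The 4 groups stand in that order and none of them overlaps its neighbour. The CD71- signals lie near the background, where the lowest detected signal of an array was 5.42 or 5.43. The size of the subset difference and its fold therefore depend on the background step. The CD71+ minus CD71- difference was 2.64 ± 0.05 in mutants (SE, adjusted p = 3.76e-09) and 2.34 ± 0.05 in wild type (adjusted p = 1.11e-08), and without background correction 1.77 and 1.65. Non-overlapping arrays are common in these contrasts, found for 46.9% of tested symbols in mutants and 39.7% in wild type.

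E2f2 (chr4:136172274-136196057), also an activator, kept the order of the subsets but not that of the genotypes. Its signals were 9.94, 9.85 and 9.96 in mutant CD71+ cells and 10.13, 10.38 and 10.30 in wild-type CD71+ cells. The CD71- arrays gave 9.60, 9.38 and 9.34 in mutants and 9.15, 9.13 and 9.42 in wild type, which overlap. The subset difference was 0.48 ± 0.10 in mutants (adjusted p = 0.00587), against 1.03 ± 0.10 in wild type (adjusted p = 8.46e-05).

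The third activator, E2f3 (chr13:29906575-29986064), lay close to the background. It gave 5.73, 5.81 and 5.84 in mutant CD71+ cells, 5.74, 5.70 and 5.71 in wild-type CD71+ cells, 5.51, 5.52 and 5.52 in mutant CD71- cells and 5.41, 5.52 and 5.54 in wild-type CD71- cells, the first of which did not detect it. The genotypes overlap within each subset and the subsets do not overlap. Its differences were 0.28 ± 0.04 in mutants (adjusted p = 0.000666) and 0.22 ± 0.04 in wild type (adjusted p = 0.00248). Near background their size depends on the background step, since a background taken from dim symbols gave 0.89 and 0.87.

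Tfdp1 (chr8:13338725-13378448) encodes DP1, a DP partner of the kind that E2F1 to E2F4 need to bind DNA. Its signals were 8.87, 8.84 and 8.23 in mutant CD71+ cells and 8.53, 9.06 and 8.15 in wild-type CD71+ cells, with the genotypes intermingled. In CD71- cells they were 7.10, 6.46 and 5.85 in mutants and 6.14, 6.64 and 6.35 in wild type, and the 3 mutant arrays spread over more than 1 log2 unit. The subset difference was 2.17 ± 0.34 in mutants (adjusted p = 0.00131) and 2.20 ± 0.34 in wild type (adjusted p = 0.00137), and without background correction 1.45 and 1.43. Of the other E2F and DP genes, E2f6, a repressor that binds no pocket protein, was higher by 0.47 in mutants (adjusted p = 0.00196) and 0.53 in wild type (adjusted p = 0.00123), and by 1.19 and 1.31 with a background taken from dim symbols. E2f5 and Tfdp2 were not called, with differences between -0.01 and 0.02.

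The repressor E2f4 (chr8:105297663-105305370) showed no called difference. It gave 6.66, 6.80 and 6.19 in mutant CD71+ cells, 6.05, 6.57 and 5.96 in wild-type CD71+ cells, 6.32, 5.94 and 6.04 in mutant CD71- cells and 6.30, 6.49 and 5.81 in wild-type CD71- cells. All 4 groups overlap. The CD71+ minus CD71- difference was 0.45 in mutants (95% interval -0.08 to 0.98, adjusted p = 0.197) and -0.01 in wild type (-0.54 to 0.52, adjusted p = 0.992), and with array weights the value in mutants became 0.64 (adjusted p = 0.00334). E2f7 (chr10:110745439-110787384), an atypical repressor, was detected on 0 of 12 arrays, with values of 5.36 to 5.43 where the lowest detected signal of an array was 5.42 or 5.43. No level or fold is given for it.

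Among the pocket proteins only Rbl1 was called. Rbl1 (chr2:157145893-157204534), the gene of p107 and itself known as an E2F target, gave 6.29, 6.11 and 6.47 in mutant CD71+ cells and 6.26, 6.01 and 5.82 in wild-type CD71+ cells. In CD71- cells it gave 5.65, 5.53 and 5.61 in mutants and 5.42, 5.57 and 5.49 in wild type, the first of the wild-type arrays not detecting it. The subsets are separate and the genotypes overlap in each. Its differences were 0.69 ± 0.11 in mutants (adjusted p = 0.0018) and 0.54 ± 0.11 in wild type (adjusted p = 0.008), and with a background taken from dim symbols 1.34 and 1.46.

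Rb1 (chr14:73192858-73325951), the retinoblastoma gene, gave 7.77, 7.34 and 7.87 in mutant CD71+ cells, 8.00, 7.29 and 7.48 in wild-type CD71+ cells, 7.27, 7.68 and 7.02 in mutant CD71- cells and 6.79, 7.10 and 7.66 in wild-type CD71- cells. All 4 groups overlap. Its subset differences were 0.33 in mutants (95% interval -0.29 to 0.96, adjusted p = 0.425) and 0.41 in wild type (-0.21 to 1.03, adjusted p = 0.334), intervals that still allow a change the size of that of Rbl1. Rbl2 (chr8:91070057-91123844), the gene of p130, which is known to occupy E2F targets in resting cells, was detected on 1 array (mutant CD71- array 1) and ranged from 5.39 to 5.44.

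**Figure D2:**
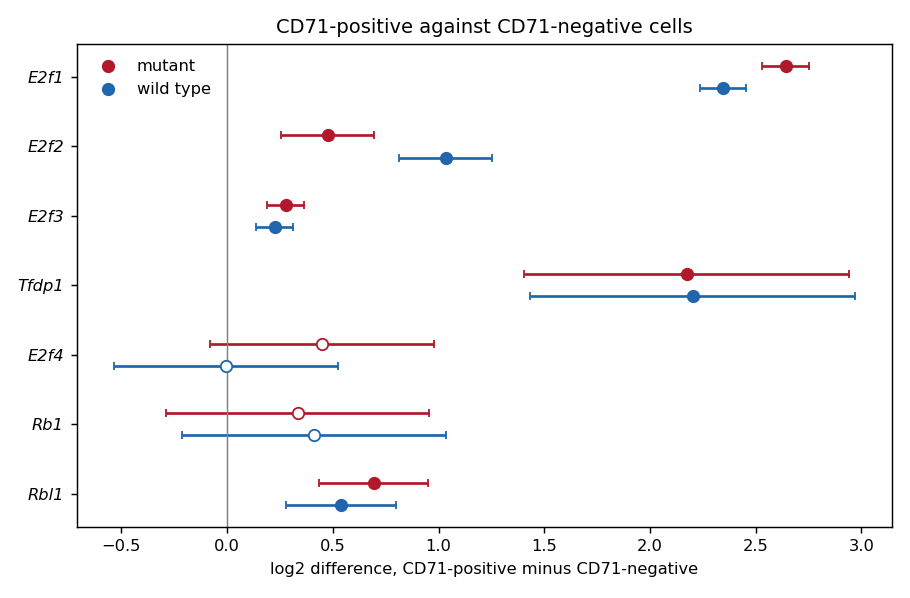
Log2 difference between CD71+ and CD71- cells (horizontal axis) for the 7 tested members in mutants (red) and wild type (blue), with 95% intervals. Filled points have an adjusted p under 0.05. E2f1 and Tfdp1 lie above 2, E2f2, E2f3 and Rbl1 between 0.22 and 1.03, and the intervals of E2f4 and Rb1 include 0.

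The study's own question was how immunophenotypically matched mutant and wild-type cells differ. In CD71+ cells 1 of the 7 tested members was called, E2f1, which was 1.42-fold higher in mutants (0.50 ± 0.05, 95% interval 0.39 to 0.61, adjusted p = 0.00666). The background in this contrast was 0.424% of tested symbols called, 0.291% higher and 0.133% lower. All 3 mutant arrays (8.42 to 8.55) lay above all 3 wild-type arrays (7.94 to 8.09). E2f2 was the only other member whose CD71+ arrays did not overlap, a pattern found for 14.6% of tested symbols, and its difference of -0.35 ± 0.10 did not pass (adjusted p = 0.263). Rbl1 differed by 0.26 ± 0.11 (adjusted p = 0.581), and E2f3, E2f4, Tfdp1 and Rb1 by 0.07 to 0.36 with adjusted p of 0.671 to 0.998.

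**Figure D3:**
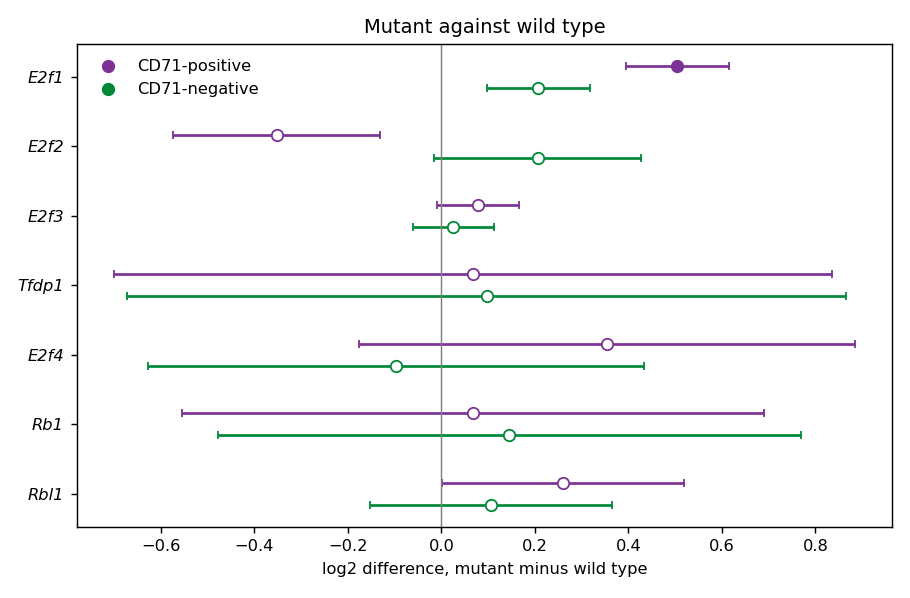
Log2 difference between mutant and wild type (horizontal axis) for the 7 tested members in CD71+ cells (purple) and CD71- cells (green), with 95% intervals. The filled point, E2f1 in CD71+ cells at 0.50, has an adjusted p under 0.05. The points of E2f2 lie on opposite sides of 0, at -0.35 in CD71+ and 0.21 in CD71- cells, and neither is called.

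In CD71- cells 0 members were called by limma, where 0.424% of tested symbols were called (0.279% higher, 0.146% lower). An unadjusted p under 0.05 was found for 1 member, and for 859 of all 8247 tested symbols. That 1 member was E2f1, with a difference of 0.21 ± 0.05 (adjusted p = 0.132) and 3 mutant arrays (5.84 to 5.90) above 3 wild-type arrays (5.61 to 5.70). Such separation was found for 14.5% of tested symbols. Over 22 alternative settings the E2f1 difference in CD71- cells ran from 0.17 to 0.52. E2f2 differed by 0.21 ± 0.10 (adjusted p = 0.527). The intervals of Tfdp1 (-0.67 to 0.87) and Rb1 (-0.48 to 0.77) leave room for a rise as large as that of E2f1 in CD71+ cells. That of E2f4 (-0.63 to 0.43) leaves room for a fall of that size but not for such a rise.

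Averaged over both subsets, E2f1 was higher in mutants by 0.36 ± 0.03 (adjusted p = 0.00226), 1 of 7 members called where 0.909% of tested symbols were (0.594% higher, 0.315% lower). The genotype difference was not shown to depend on the subset. For the difference between subsets limma called 0 members, against 0.0121% of tested symbols. An unadjusted p under 0.05 was found for 2 members, and for 466 of all 8247 tested symbols. The 2 were E2f1, whose mutant minus wild-type difference was larger in CD71+ cells by 0.30 ± 0.07 (adjusted p = 0.338), and E2f2, for which the value was -0.56 ± 0.14 (adjusted p = 0.384). With a background taken from dim symbols the E2f1 value was -0.08.

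The E2f1 difference in CD71+ cells kept its sign under all 22 alternative settings (0.36 to 0.57) and its call in 18, each of the 12 that leave out 1 array included. The call was lost with cyclic loess (adjusted p = 0.712), with a background from dim symbols (0.177), with a trended robust variance (0.201) and when only the compared groups were fitted (0.119). Over the 22 settings the adjusted p ran from 0.00201 to 0.712. Beside it, the summed log2 signal of 12 myeloid and dendritic markers was 71.1 to 78.3 on mutant CD71+ arrays, against 69.2 to 71.7 on wild-type CD71+ arrays. Of these 12 markers, 6 were detected on all 3 mutant arrays and 5 on all 3 wild-type arrays. On no array were 4 of them detected in mutant and 6 in wild-type CD71+ cells, Itgam and Itgax included in both. Cd74 averaged 7.95 in mutants and 6.62 in wild type. The differences of Cd74, H2-Ab1 and H2-Aa were 1.32, 1.24 and 0.69, and those of the other tested markers at most 0.39 (Cst3). Limma called 0 of the 6 tested between genotypes. The sum was 68.0 to 68.5 on mutant CD71- arrays, against 66.7 to 67.4 on wild-type CD71- arrays, so it was also higher in CD71+ than in CD71- cells of each genotype. The summed log2 signal of the 10 CD4+CD8+ thymocyte markers was 74.1 to 75.1 on mutant CD71+ and 76.2 to 78.2 on wild-type CD71+ arrays, and 82.8 to 83.4 on mutant CD71- and 83.3 to 83.4 on wild-type CD71- arrays. Among them Rag1, a recombinase gene, averaged 7.87 in mutant CD71+ and 8.76 in wild-type CD71+ cells (-0.89, adjusted p = 0.402), against 9.88 in mutant CD71- and 10.19 in wild-type CD71- cells. The part of both marker lists in the differences of E2f1 and the other members was not tested.

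**Figure D4:**
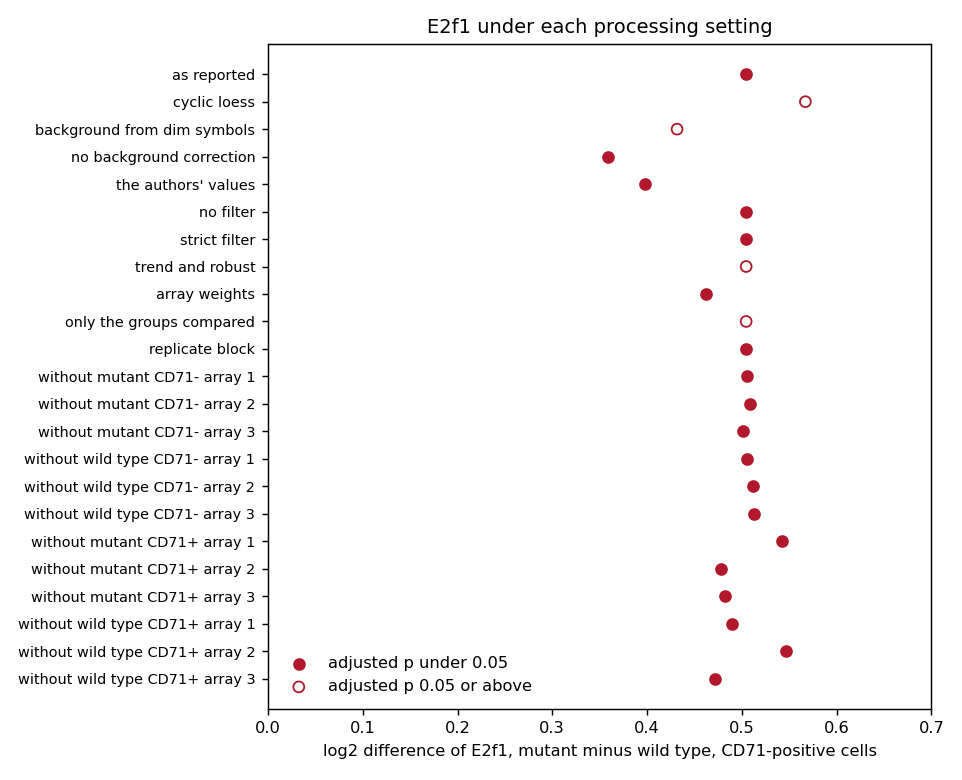
Log2 difference of E2f1 between mutant and wild-type CD71+ cells (horizontal axis) as reported and under each of 22 alternative settings (rows). Filled points have an adjusted p under 0.05 and open points do not. All points lie between 0.36 and 0.57, and 4 of the alternatives are open.

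The genes on which E2F acts at the start of S phase were described through a list of 41, of which 40 had a row and 36 were tested. In CD71+ against CD71- cells, 30 of the 36 were higher and 0 lower in mutants (median 1.52), and 27 were higher and 0 lower in wild type (median 1.23), where the median of all tested symbols was -0.01 in both. Over all tested symbols 14.5% were called higher in mutants and 12.0% in wild type. Rrm1, a ribonucleotide reductase subunit, was higher by 3.24 in mutants and 3.28 in wild type. Mcm5, Mcm6 and Mcm10, which serve the replicative helicase, were higher by 2.96, 2.73 and 2.86 in mutants and by 3.33, 2.70 and 2.65 in wild type. Tyms, which makes thymidylate, was higher by 1.55 in mutants and 1.82 in wild type. Without background correction Mcm6 was higher by 1.81 in mutants and 1.79 in wild type, and with a background taken from dim symbols Tyms by 2.24 and 2.80.

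Between genotypes 0 of the 36 G1/S targets were called in CD71+ cells, although 29 had a difference above 0 and 11 an unadjusted p under 0.05. Over all 8247 tested symbols 3866 lay above 0 and 705 had an unadjusted p under 0.05. The median difference of the G1/S targets was 0.24 (0.13 to 0.27 over the alternatives), against a median of 0.00 over all tested symbols. The nearest to the threshold of those named were Dut, which removes dUTP (0.57 ± 0.10, adjusted p = 0.0646), and Chaf1b, a histone chaperone subunit (0.61 ± 0.13, adjusted p = 0.109). Mcm10 differed by 0.34 ± 0.08 (adjusted p = 0.173), and Tyms by -0.18 ± 0.10 (adjusted p = 0.767). In CD71- cells 0 of 36 were called as well, 2 had an unadjusted p under 0.05, 29 were above 0, and the median was 0.03 (0.03 to 0.18 over the alternatives, against 0.00 over all tested symbols). Of all 8247 tested symbols 4078 lay above 0 and 859 had an unadjusted p under 0.05 in CD71- cells. Here Mcm5 had a difference of 0.73 ± 0.20 (adjusted p = 0.197).

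Mitotic genes that the MuvB complex and FoxM1 drive after S phase had the larger subset differences. All 10 tested of 16 listed were higher in CD71+ cells in each genotype, with a median of 3.21 in mutants and 3.53 in wild type. The share called higher over all tested symbols was 14.5% in mutants and 12.0% in wild type. Plk1, a mitotic kinase, was higher by 3.57 in mutants and 3.88 in wild type, and Prc1, which bundles spindle microtubules, by 3.87 and 4.99. Between genotypes in CD71+ cells 10 of the 10 lay below 0, with a median of -0.32 (-0.41 to -0.25 over the alternatives), and 1 was called. Over all 8247 tested symbols 4381 lay below 0 in this contrast, and 0.424% were called. The 1 mitotic gene called was Cdca8, a subunit of the chromosomal passenger complex, which fell by 0.88 ± 0.12 in mutants (adjusted p = 0.0224). Its sign held under all 22 alternatives (-0.996 to -0.601) and its call in 14. The call was lost in the other 8, with an adjusted p of up to 0.549. Among these 8 were the settings without mutant CD71+ array 1 (adjusted p = 0.0897) and without mutant CD71+ array 2 (0.064). The lowest adjusted p over the alternatives was 0.00381. In CD71- cells 9 of the 10 lay above 0, with a median of 0.12 (0.02 to 0.43 over the alternatives) and 0 called (2 at an unadjusted p under 0.05), and 0 were called for the difference between subsets (6 at an unadjusted p under 0.05, median -0.44). Of all 8247 tested symbols 4078 lay above 0 and 859 had an unadjusted p under 0.05 in CD71- cells. For the difference between subsets 466 of them had an unadjusted p under 0.05.

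**Figure D5:**
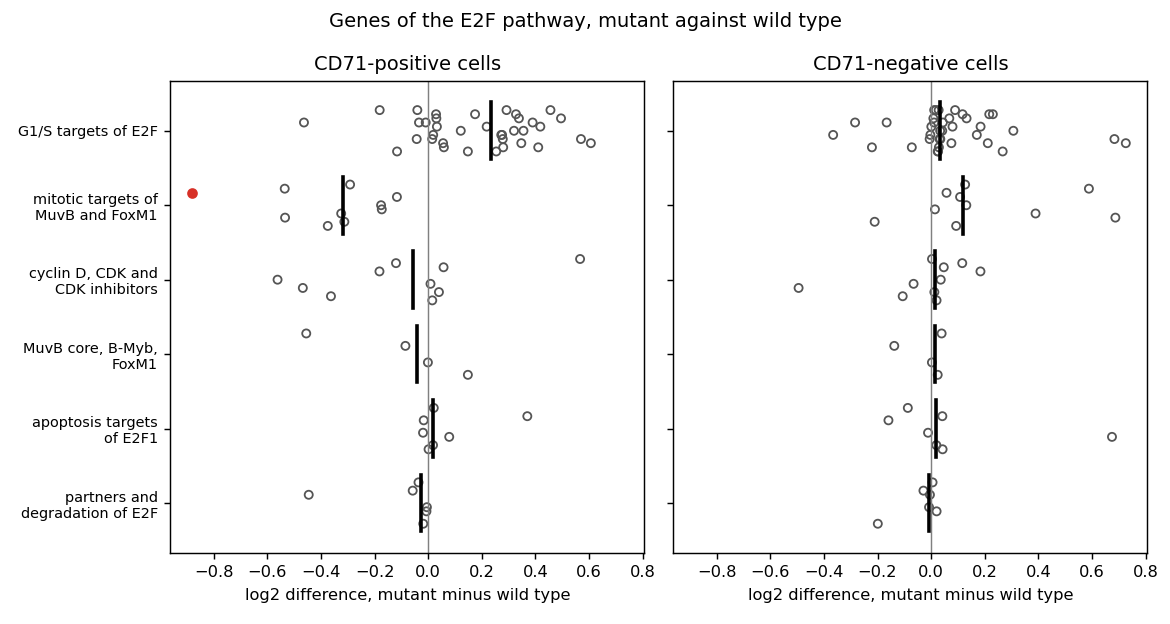
Log2 difference between mutant and wild type (horizontal axes) of each tested gene in 6 lists of the E2F pathway (rows), in CD71+ cells (left) and CD71- cells (right). Points are genes, bars are list medians, and the filled red point, Cdca8 at -0.88, is the one gene with an adjusted p under 0.05. The G1/S medians are 0.24 and 0.03, and the mitotic medians -0.32 and 0.12.

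Upstream of the pocket proteins, 10 of 15 cyclin D, CDK and CDK inhibitor genes were tested, and 4 were higher and 0 lower in CD71+ cells in each genotype, where 14.5% of all tested symbols were higher in mutants and 12.0% in wild type. Cdk2, a kinase that phosphorylates pocket proteins, was higher by 1.10 in mutants and 1.11 in wild type. Cdkn2c, an inhibitor of the cyclin D kinases, was higher by 0.62 in mutants and 1.22 in wild type, and Skp2, which targets another inhibitor for degradation, by 0.24 and 0.21. With a background taken from dim symbols Skp2 was higher by 1.02 in mutants and 0.95 in wild type, and Cdkn2c by 1.22 and 1.88. Without background correction Cdk2 was higher by 0.75 in each genotype. Ccnd1, a D-type cyclin, was called in mutants at 0.69 (adjusted p = 0.039) and differed by 0.13 in wild type (adjusted p = 0.733), and Cdkn1c, another CDK inhibitor, was called in wild type at 0.41 (adjusted p = 0.00382) and differed by 0.15 in mutants (adjusted p = 0.181). The test of the difference between the 2 genotypes called neither (adjusted p = 0.929 for Ccnd1 and 0.862 for Cdkn1c). The mutant calls of Ccnd1 and Cdkn2c were lost in 12 and 10 of 22 alternatives, with an adjusted p of up to 0.148 and 0.137. The background from dim symbols gave Ccnd1 1.84 in mutants and 0.71 in wild type, and Cdkn1c 0.49 and 0.80. Between genotypes limma called 0 of the 10 in either subset, with 4 at an unadjusted p under 0.05 in CD71+ and 1 in CD71- cells. Of all 8247 tested symbols 0.424% were called in each subset. An unadjusted p under 0.05 was found for 705 of them in CD71+ and 859 in CD71- cells.

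For the next 2 lists the background is 14.5% of all tested symbols called higher in CD71+ cells in mutants and 12.0% in wild type. In the MuvB list, 3 of 4 tested genes were higher in CD71+ cells in each genotype. They were Lin54, a DNA-binding subunit of MuvB (1.61 in mutants, 1.55 in wild type), Foxm1 (0.97 and 1.46) and Mybl2, the gene of B-Myb, which is also among the G1/S targets (0.49 and 0.37). Among 6 tested partners and degradation factors 3 were higher in each genotype, namely Fzr1, an activator of the anaphase-promoting complex (2.08 in mutants, 2.52 in wild type), Ccnf, which targets proteins for degradation (0.20 and 0.24), and Suv39h1, a histone methyltransferase that RB1 recruits (0.33 and 0.36). Several of these genes lie near the background, and with a background taken from dim symbols Mybl2 was higher by 1.54 in mutants and 1.42 in wild type, Ccnf by 0.96 and 1.10, Foxm1 by 2.02 and 2.64, and Suv39h1 by 0.89 and 0.86. Without background correction Lin54 was higher by 1.03 in mutants and 0.98 in wild type.

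Of the apoptosis genes known as E2F1 targets, 7 were tested. In CD71+ against CD71- cells 2 were lower and 1 higher in mutants, and 1 was lower and 1 higher in wild type. Over all tested symbols 14.3% were lower and 14.5% higher in mutants, and 13.1% lower and 12.0% higher in wild type. The gene Bcl2l11, which encodes the death-promoting protein BIM, differed by -0.24 in mutants (adjusted p = 0.0358) and -0.38 in wild type (adjusted p = 0.00452). Its mutant call was lost in 7 of 22 alternatives (adjusted p up to 0.164), and with a background taken from dim symbols its differences were -0.71 and -0.98. Bbc3, which encodes PUMA, differed by -0.996 in mutants (adjusted p = 0.00845) and -0.40 in wild type (adjusted p = 0.234), and the difference between genotypes was not called (adjusted p = 0.929). Over the 22 alternatives Bbc3 was called lower in wild type in 5 (down to -1.13 with a background taken from dim symbols), and its mutant call was lost in 1, with only the groups compared (adjusted p = 0.0578). Between genotypes limma called 0 genes of these 3 lists in either subset, with 4 at an unadjusted p under 0.05 in CD71+ cells and 1 in CD71- cells. The background in each subset was 0.424% of tested symbols called. At an unadjusted p under 0.05 it was 705 of 8247 symbols in CD71+ and 859 of 8247 in CD71- cells.

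Over the 12 arrays the symbol whose signal was most like that of E2f1 was Mcm10 (Pearson's r = 0.997), followed by Adk and Ppa1 (both 0.996). For Tfdp1 the nearest were Ssrp1, Got2 and Gtf3c5 (all 0.982), and for Rbl1 they were Eef1e1 (0.980), Rfc4 (0.971) and Mrpl18 (0.966). E2f2 was most like Tbl2 (0.972), Nphp4 (0.970) and LOC100047579 (0.958), and E2f3 most like Adssl1 (0.982), Dpagt1 (0.972) and Gnl3 (0.968). The members with no called difference had lower values at the top, Pwp2 (0.923), Rnpep (0.922) and Alg3 (0.921) for E2f4, and Timm17a (0.906), Dscr3 (0.889) and Esd (0.884) for Rb1. These correlations describe 12 arrays that share the 2 subsets, and most of the spread behind the high values lies between CD71+ and CD71- cells.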

How the data were processed

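Per the file headers, the deposited non-normalized table pairs a signal intensity (linear scale) with a detection p-value, per array, for 18138 symbols without probe identifiers. How probes were combined per gene is not stated. A table of processed intensity values by the authors (18132 symbols) served as an alternative, with RMA named in the submitters' processing notes. The family and all lists were chosen with earlier results of these data known.

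Signals were normalized with neqc of limma 3.58.1 (R 4.3.3), with the background inferred from detection p-values, an offset of 16, quantile normalization and log2. The offset understates differences of dim genes. A symbol entered the tests if 3 or more arrays had a detection p under 0.05 for it, as 8247 did. The test was made with lmFit and eBayes over all 12 arrays and 4 group means, two-sided. Benjamini-Hochberg adjustment covered all these symbols within a contrast, and calls have an adjusted p under 0.05. Intervals are 95% intervals of the fit. Symbols were matched by name, and 0 columns of other samples and 0 pairs of identical arrays were found. Named genes are the members, Ncaph2, Tfrc, markers, the 3 symbols most correlated with each tested member, and in each other list up to 4 genes with the smallest p in the averaged genotype contrast and up to 4 in the wild-type subset contrast. Some genes that this rule takes are not reported here. The script was tested on simulated data. Alternatives changed the normalization, background, filter, variance model, array weights, groups fitted, replicate block and arrays included. Positions and promoters come from RefSeq (GRCm38.p6).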

Additional observations from a re-analysis of the deposited data

How the results depend on the processing

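Settings were compared for their calls, and direction only where a value was called in either setting; no called difference of a named gene changed sign. In CD71+ against CD71- cells the 5 calls of members held in each genotype under all 22 alternatives, and array weights added E2f4 in mutants. For mutant against wild type in CD71+ cells, 0 members were called with cyclic loess, a background from dim symbols, a trended robust variance or only the groups compared, and 2 with array weights (E2f1, and E2f2 at -0.32, adjusted p = 0.0471). In CD71- cells 1 was called with array weights, E2f1 (0.19, adjusted p = 0.0371). Averaged over subsets, 0 were called with cyclic loess (E2f1 adjusted p = 0.428) and with a trended robust variance (0.12). The cause of these changes was not tested. G1/S targets called numbered 1 in CD71- cells with array weights, 1 in CD71+ cells with a trended robust variance and 5 with array weights, and 0 to 2 when 1 array was left out (2 without mutant CD71+ array 3, 2 without wild-type CD71+ array 2, 1 without wild-type CD71+ array 3). Averaged, 1 was called with a background from dim symbols, with no background correction and with the replicate block, 5 with array weights, and 0 to 1 when 1 array was left out (mutant CD71+ array 3 or wild-type CD71+ array 2). Over all tested symbols, the 35 calls between genotypes in CD71+ cells became 6 with cyclic loess, 16 without background correction, 22 with the authors' values, 16 without a filter, 207 with array weights, 2 with only the groups compared and 23 with the replicate block. The 35 calls in CD71- cells became 8 with cyclic loess, 20 without a filter, 53 to 55 with a trended robust variance, a background from dim symbols or the authors' values, 461 with array weights and 2 with only the groups compared. The 75 averaged calls became 18 with cyclic loess, 35 without a filter and 554 with array weights, and the 1 call for the difference between subsets became 45 with array weights. Leaving out 1 array gave 14 to 60 calls in CD71+ cells, 14 to 121 in CD71- cells and 27 to 133 averaged. Arrays of the same replicate number did not deviate together in every pair (12 pairs, r = -0.41 to 0.51, 8 over 0.1). Whether the numbers pair the samples is not settled by these values. With the replicate block, E2f1 in CD71+ cells gave an adjusted p of 0.0236 and no member's call changed. Members near the background (E2f3, Rbl1, E2f7 and Rbl2, and E2f1 in CD71- cells) have differences that the offset and the background step limit.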
